A study of Danio rerio with 4 samples.

Results

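Collagens and the proteins that modify, fold and crosslink them were described in hearts of tie1 mutant zebrafish (Danio rerio) embryos. Members were chosen by gene symbol alone, as the rows of the deposited table named for a collagen chain (col, a number and a chain), a lysyl oxidase, a lysyl hydroxylase, a prolyl hydroxylase or the collagen chaperone Serpinh1. The rule matched 68 of 16662 genes, and 49 of these encode collagen chains. The others were 17 enzyme and chaperone genes and 2 rows, col4a3bpa and col4a3bpb, that the rule matched by name only, since they encode ceramide transfer proteins and no collagen. The collagens were kept in 4 classes, with 9 basement membrane, 9 fibrillar, 11 cartilage and 20 other collagen rows.

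Hearts were taken out with needles at 48 hours post fertilisation (hpf) and pooled, and their total RNA was sequenced. Of 4 libraries, 2 were from tie1 mutants, labelled tie1 KO, and 2 from siblings, labelled tie1 WT, and both groups carried the Tg(kdrl:eGFP) transgene, which marks endothelial cells. The design text counts heterozygotes among the siblings, so they are called siblings and not wild types here. The sources used here name neither the mutant allele nor the number of hearts in a pool. Nothing beyond the labels says that the pools of a group came from separate clutches, so the tests measure the spread between these pools, which may be technical.

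Assigned reads, estimated from the spacing of the low values, numbered 1770000 to 3240000 in a library, but the spacing was matched only loosely (correlation 0.447 and 0.897 in mutants, 0.638 and 0.325 in siblings), so the depth is known only roughly. The tie1 gene, which encodes an endothelial receptor tyrosine kinase, had normalised values of 123 and 88 in the mutants, against 558 and 300 in the siblings. Its groups did not overlap, and the adjusted p was 0.148. The heart muscle light chain gene myl7, at 3842 and 1966 in mutants and 3595 and 2469 in siblings, and the endothelial cadherin gene cdh5, at 1313 and 790 in mutants and 1883 and 1117 in siblings, were abundant in every library. The 10 heart muscle markers summed to 73557 and 46094 in mutants and 111172 and 68506 in siblings, and the smooth muscle markers to 336 and 287 in mutants and 420 and 320 in siblings. Skin and fin fold markers summed to 13051 and 15919 in mutants and 12367 and 17215 in siblings. Skeletal muscle markers summed to 1525 and 1584 in mutants and 2797 and 2612 in siblings, and erythrocyte markers to 5143 and 4791 in mutants and 13305 and 11395 in siblings, both without overlap. The skeletal muscle sums hide a difference between the mutants. Relative to the sibling mean, the median log2 value of the tested rows was −2.17 in mutant 1 and −0.52 in mutant 2.

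Collagens are secreted as helices of 3 chains with glycine-rich repeats. Collagen IV forms the sheet-like network of basement membranes, which in the embryonic heart underlie the endocardium and line the muscle on either side of the cardiac jelly. Fibrillar collagens such as collagen I and V build cables, collagen VI forms beaded filaments in the matrix close to cells, and collagens II, IX, X and XI belong mainly to cartilage and notochord. Inside the cell, prolyl and lysyl hydroxylases modify the chains and Serpinh1, also known as Hsp47, holds the helix together during folding. Outside it, lysyl oxidases crosslink the fibres.

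No member passed an adjusted p under 0.05 between mutants and siblings, and neither did any other gene of the fit (0%). Of the 68 members, 63 had a mean value of at least 10 over the 4 libraries and were tested with limma, and their smallest adjusted p was 0.351. Over all tested members the log2 fold changes centred on −0.01, as those of all 12118 genes tested centred on 0. Fold changes are on the scale of log2(value + 1), with standard errors (SE), and are mutant over sibling throughout.

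At an unadjusted p under 0.05, 10 members were lower in the mutants (15.9% of those tested), where 4.34% of all genes were, and 3 were higher (4.76%), where 2.61% of all genes were. With totals scaled without mitochondrial genes the split was 8 lower and 5 higher, beside 2.99% and 4.17% of all genes. The 10 lower members were the 5 collagen VI rows, col4a1, col4a2, col11a1b, col5a2b and col10a1a, and the 3 higher ones were col9a3, col27a1b and loxl1. All 10 lower rows were collagens, and genes among them that adjoin or overlap are counted separately. Of these rows, col5a2b and col10a1a reached the mean of 10 only through their sibling values, with mutant means of 3 and 4. The count of 10 was reached only in fits to all 4 libraries. Fits without 1 library called fewer members lower, and fewer of all genes as well. Such a fit leaves 1 library in a group, so only its effect sizes are used. Without each library in turn, the log2 fold change ran from −1.15 to −0.65 in col4a1 and from −1.01 to −0.7 in col4a2. In col11a1b it ran from −0.95 to −0.25.

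The mutants lay entirely below the siblings in 18 tested members (28.6%), against 18.3% of all genes, and entirely above them in 13 (20.6%), against 15.7%. The fold change alone was below 0 in 33 members and above 0 in 30, while it was below 0 in 50.2% and above 0 in 49.6% of all genes. The summed value of the 49 collagen rows was 13414 and 16077 in the mutants, against 17916 and 18492 in the siblings, so both mutant sums were lower. The sum over the 17 enzyme and chaperone rows was 1302 and 1243 in mutants and 1274 and 1220 in siblings, and the groups overlapped. Values are not corrected for transcript length, so they compare libraries and not the amounts of different chains.

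**Figure D1:**
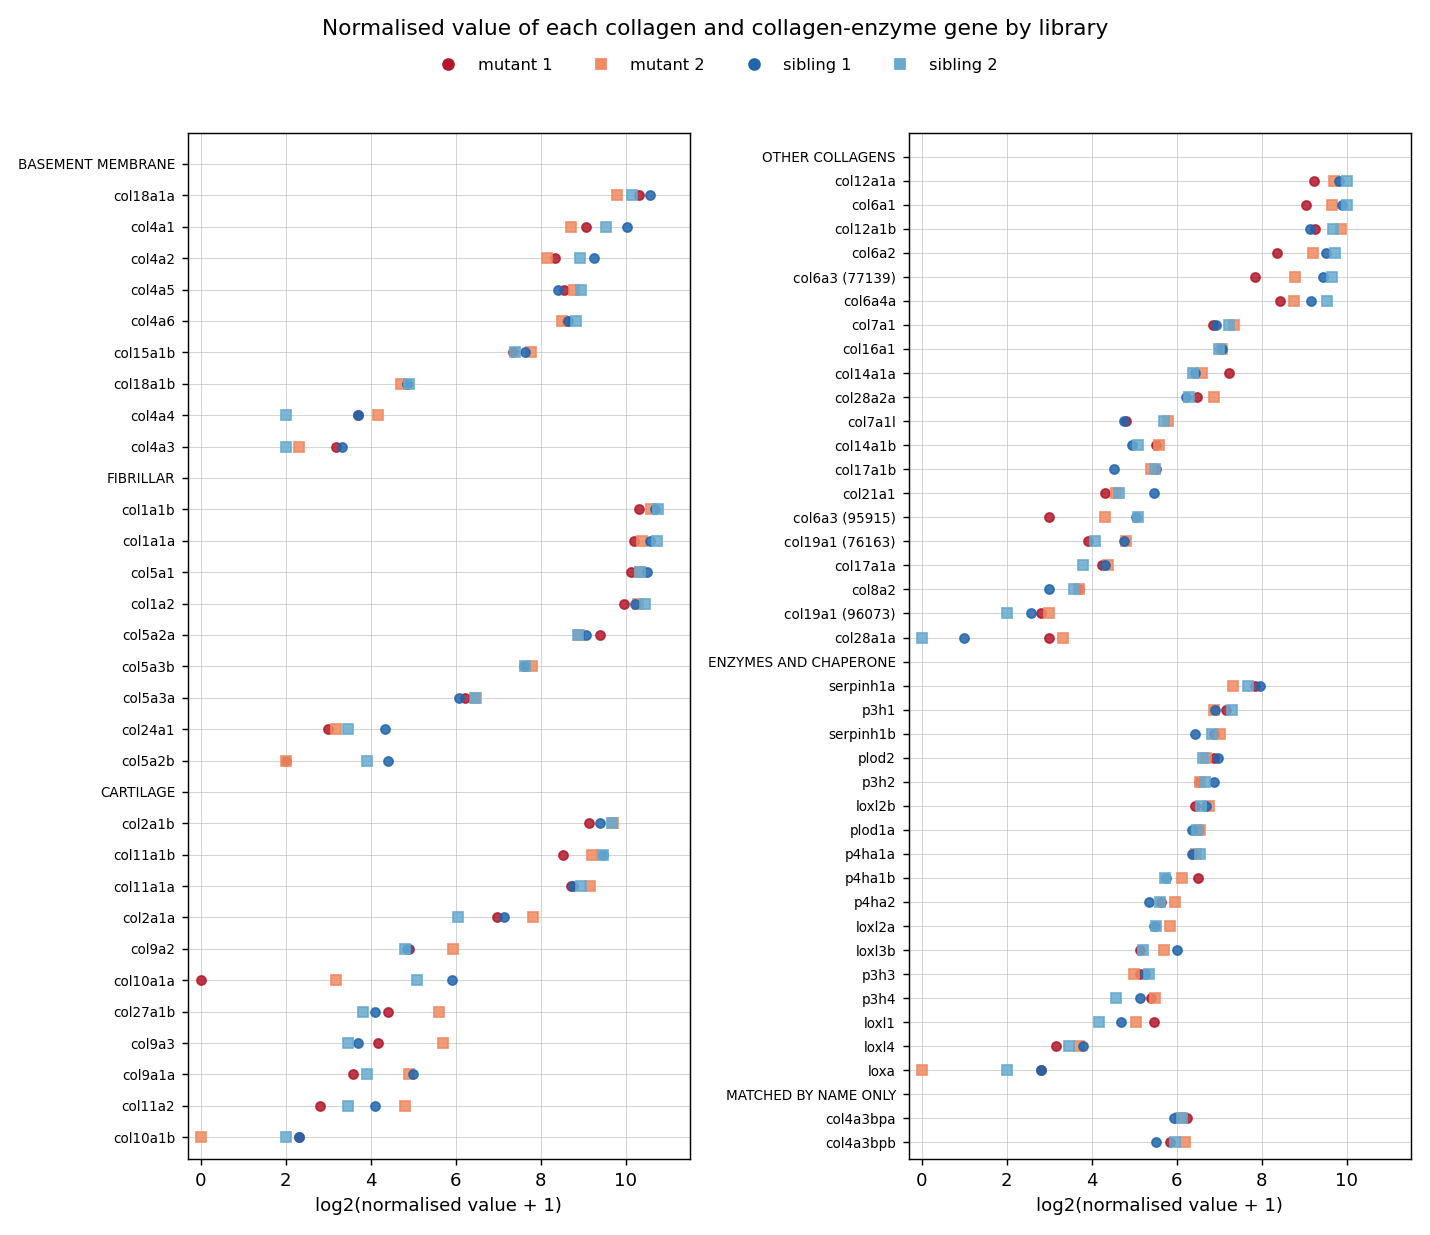
Normalised value of each of the 68 members in the 4 libraries, on a log2(value + 1) axis, grouped by class and sorted by mean, with circles for replicate 1 and squares for replicate 2 of each group and the last 5 digits of the gene identifier where a symbol occurs on 2 rows. Collagen VI rows, col4a1 and col4a2 have both mutant points left of both sibling points. Of the 16 tested enzyme and chaperone genes, 8 have overlapping points, 6 have both mutant points to the right and 2 to the left.

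**Figure D2:**
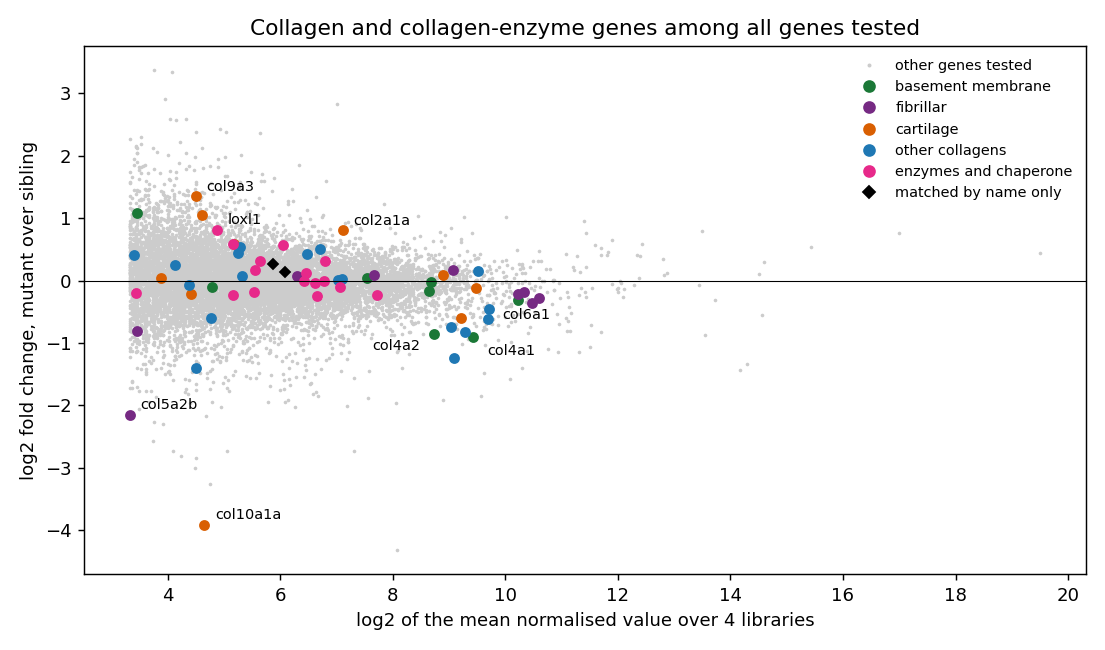
Log2 fold change of mutant over sibling against the log2 mean normalised value for the 12118 genes tested, with the 63 tested members coloured by class. Members lie on both sides of 0, around a median of −0.01, and col10a1a at −3.91 is the lowest of them.

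Among basement membrane collagens, the col4a1 and col4a2 genes had lower values in both mutant libraries and the col4a5 gene did not. The gene col4a1 encodes the alpha 1 chain of the most widespread collagen IV helix and had values of 533 and 415 in mutants, against 1045 and 739 in siblings. Its partner in that helix, col4a2, had 320 and 280 in mutants and 605 and 487 in siblings. In both genes every mutant value was below every sibling value. The log2 fold change was −0.90 ± 0.25 for col4a1 and −0.86 ± 0.21 for col4a2, with adjusted p of 0.445 and 0.404, or folds of 0.536 and 0.552. The ratio of col4a1 to col4a2 within a library was 1.67 and 1.48 in mutants and 1.73 and 1.52 in siblings, so the pair kept nearly the same proportion in both groups. The 2 genes point away from each other on chromosome 9 of GRCz11, where col4a1 spans 8634229 to 8670158 on the minus strand and col4a2 spans 8761099 to 8882901 on the plus strand.

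The alpha 5 and alpha 6 chains form another collagen IV helix, and their genes stand head to head on chromosome 7, with 752 bases between them. Values of col4a5 were 372 and 440 in mutants and 340 and 492 in siblings, and overlapped. Its log2 fold change was −0.02, with a 95% confidence interval from −0.56 to 0.53. Values of col4a6 were 391 and 361 in mutants and 396 and 450 in siblings, which did not overlap but lay close together, with a log2 fold change of −0.17 ± 0.20. The ratio of col4a1 to col4a5 was 1.43 and 0.943 in mutants, against 3.07 and 1.50 in siblings. The choice of this ratio followed a look at the values, and 4 libraries are too few for an exact permutation test of a single value to pass 0.05, so none was run.

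The remaining collagen IV genes had few reads. Values of col4a4 were 12 and 17 in mutants and 12 and 3 in siblings, and those of col4a3 were 8 and 4 in mutants and 9 and 3 in siblings, so that col4a3 was not tested. These genes overlap on opposite strands of chromosome 15, and no source used here states how the counting treated strand. The multiplexin genes col15a1b, col18a1a and col18a1b, collagens that sit with basement membranes, overlapped between groups. The most abundant, col18a1a, which is also the source of endostatin, had 1258 and 883 in mutants and 1526 and 1123 in siblings, and was named after its values were seen. The log2 fold changes of these 3 genes ran from −0.31 to 0.05. Over the 8 tested basement membrane rows the median was −0.14, with 6 lower and 2 higher, where 50.2% of all genes were lower. Of the 2 higher, col4a4 met the mean of 10 only through the mutants, with a sibling mean of 7.5.

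Sums of the endothelial markers overlapped between groups. Summed over 14 markers of endothelium and endocardium, values were 3792 and 2347 in mutants and 5467 and 3530 in siblings. None of the markers was at 0 in any library, and 12 of them had a fold change below 0, where 50.2% of all genes had. An unadjusted p under 0.05 was passed by 4 (28.6%), all lower, where 4.34% of all genes were lower at that p. For 5 of the 14 (35.7%) the mutants lay entirely below the siblings, against 18.3% of all genes. The log2 fold change was −1.29 for flt1, −0.97 for tek, −0.96 for pecam1 and −0.84 for kdrl. That of cdh5 was smaller, at −0.51 ± 0.32, and 2 markers were higher. Relative to cdh5, the col4a1 value was 0.406 and 0.525 in mutants, against 0.555 and 0.662 in siblings, and did not overlap. The ratio of col4a2 to cdh5 was 0.244 and 0.354 in mutants and 0.321 and 0.436 in siblings, and overlapped. Ratios to other single endothelial markers were not taken, and their order could differ by marker. Of the 14 markers, flt1, tek and pecam1 had fold changes below the −0.90 of col4a1, and the others did not. In pools of whole hearts, fewer cells of a type and less RNA per cell cannot be told apart, and the part of endothelial content in the collagen IV values was not tested.

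**Figure D3:**
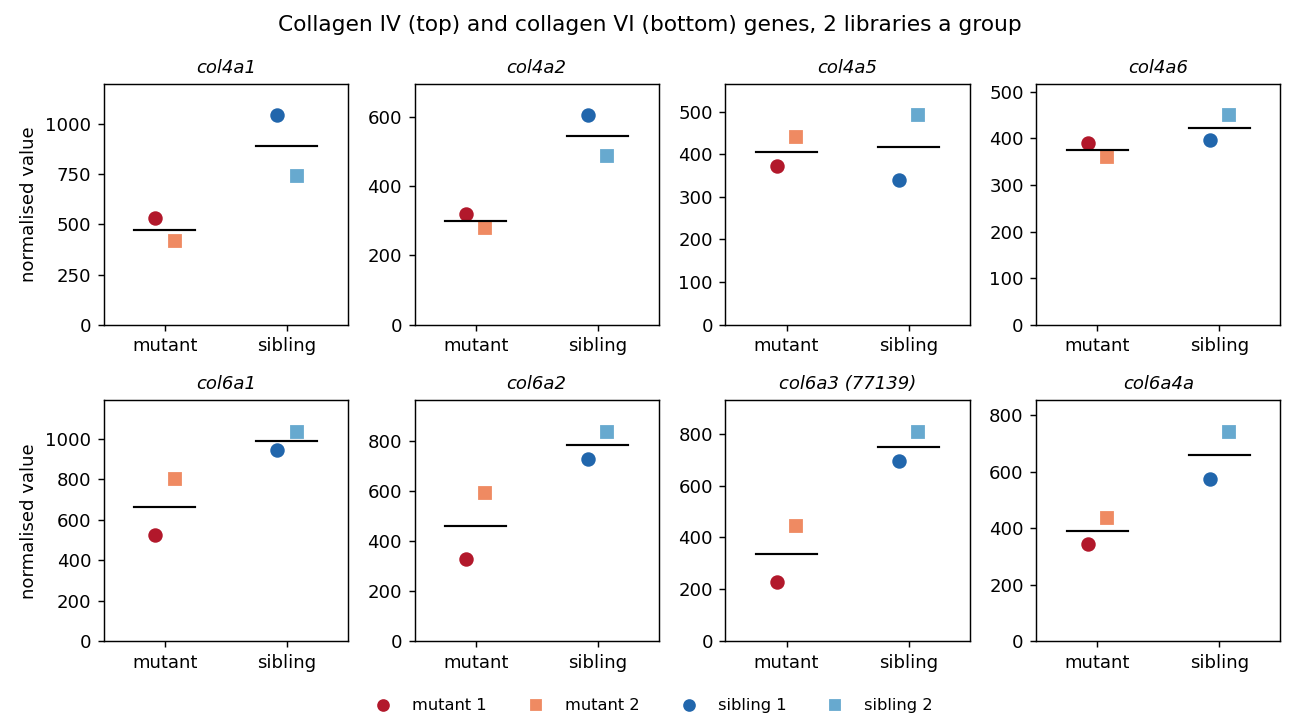
Normalised values of 4 collagen IV genes (top) and 4 collagen VI genes (bottom) in each library, with axes from 0, mutants on the left and siblings on the right, points for libraries and horizontal lines for the mean of 2. The col4a1, col4a2 and collagen VI points are lower in both mutants, while col4a5 points overlap.

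Collagen VI had lower values in the mutant hearts in 5 of 5 rows, each at an unadjusted p under 0.05. Of all genes, 4.34% were lower at that p. With quantile normalization and with totals scaled without mitochondrial genes it was 4 of 5, since col6a1 had p of 0.135 and 0.064. The planned classes held these rows among the other collagens, and the family was set apart outside that plan. Its rows are not independent, since 2 of them overlap under the symbol col6a3. Summed over the family, values were 1431 and 2291 in mutants and 2976 and 3457 in siblings, and mutant 1 was the lowest library in every row. The gene col6a1 encodes the chain that pairs with the alpha 2 and alpha 3 chains in the basic unit of collagen VI. It had 524 and 802 in mutants and 945 and 1036 in siblings, a log2 fold change of −0.61 ± 0.25 with an adjusted p of 0.709. The gene of the alpha 2 chain, col6a2, had 328 and 592 in mutants and 731 and 839 in siblings, with −0.83 ± 0.29 and an adjusted p of 0.614. Both are minus-strand genes of chromosome 11, where col6a1 spans 33996526 to 34065718 and col6a2 spans 33921358 to 33960318, with no other gene of the table between them.

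The lowest fold of the abundant collagen VI rows belonged to col6a3 (ENSDARG00000077139), the gene of the large alpha 3 chain. Its values were 227 and 443 in mutants and 693 and 808 in siblings, a mean of 335 ± 152.7 and 750.5 ± 81.3 (SD, n = 2 each). The log2 fold change was −1.24 ± 0.31, with an adjusted p of 0.399 and a fold of 0.425. A second row of the same symbol (ENSDARG00000095915) overlaps it on the same strand of chromosome 9, so reads could be split between them. That row had 7 and 19 in mutants and 32 and 33 in siblings, with −1.40 ± 0.48. The gene col6a4a, which encodes a further long chain, had 345 and 435 in mutants and 575 and 741 in siblings, with −0.75 ± 0.23 and an adjusted p of 0.547.

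Ratios between the chains of collagen VI were lower in the mutants too. Relative to col6a1, the main col6a3 row stood at 0.433 and 0.552 in mutants and 0.733 and 0.780 in siblings, and col6a2 at 0.626 and 0.738 in mutants and 0.774 and 0.810 in siblings. Neither ratio overlapped between groups. The collagen VI sum was 0.42 and 0.557 of the collagen I sum in mutants, against 0.686 and 0.717 in siblings. These ratios were chosen after the values were seen. All 5 rows kept a fold change below 0 without each library in turn. Fewer of them then passed an unadjusted p under 0.05, as fewer of all genes did. The log2 fold change of the main col6a3 row was −0.75 without mutant 1 and −1.72 without mutant 2.

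Markers of mesenchyme and neural crest, cells that make collagen VI in many tissues, also differed between libraries. Over 9 markers the sum was 766 and 1106 in mutants and 1020 and 1168 in siblings, and overlapped, with 6 markers lower, 3 higher and none at 0. The mutants lay entirely below the siblings in 1 of the 9 (11.1%, against 18.3% of all genes), and entirely above them in 2 (22.2%, against 15.7%). The 1 below was the receptor gene pdgfra, with 324 and 413 in mutants and 494 and 512 in siblings. The 2 above were pdgfrb and twist1b. Values of pdgfrb were 36 and 29 in mutants and 21 and 24 in siblings. Those of twist1b were 40 and 49 in mutants and 36 and 37 in siblings. The ratio of the collagen VI sum to this marker sum, also chosen after the values were seen, was 1.87 and 2.07 in mutants and 2.92 and 2.96 in siblings. The 5 epicardial markers summed to 109 and 151 in mutants and 134 and 154 in siblings, and overlapped, with none at 0. Of these, 4 were lower and 1, aldh1a2, higher, with 66 and 71 in mutants and 47 and 52 in siblings. Their median log2 fold change was −0.62. The mutants lay entirely below the siblings in 2 (40%, against 18.3% of all genes) and entirely above in 1 (20%, against 15.7%). Relative to the sibling mean the epicardial median was −1.03 in mutant 1 and −0.08 in mutant 2. Skeletal muscle markers had lower values in the mutants as well, with a median log2 fold change of −1.59 over 10 tested rows, 9 lower and 1 higher. An unadjusted p under 0.05 was passed by 5 (50%), all lower, where 4.34% of all genes were lower at that p. Relative to the sibling mean the median of the 10 rows was −2.17 in mutant 1 and −0.52 in mutant 2. That of the collagen VI rows was −1.25 and −0.58. The marker myog was at 0 in mutant 1. The part of these cell types in the collagen VI values was not tested.

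None of the 4 most abundant fibrillar collagen genes passed an unadjusted p under 0.05, where 4.34% of all genes were lower and 2.61% higher. The fold changes of these 4 genes were small. The zebrafish has a pair of genes for the alpha 1 chain of collagen I. Of these, col1a1a had 1159 and 1334 in mutants and 1507 and 1690 in siblings, with a log2 fold change of −0.36 ± 0.22, and col1a1b had 1264 and 1542 in mutants and 1649 and 1733 in siblings, with −0.28 ± 0.22. In both, the mutant values lay below the sibling values. The partner chain gene col1a2 had 984 and 1236 in mutants and 1185 and 1397 in siblings, which overlapped, with −0.22 ± 0.23. The ratio of col1a1a to col1a2 was 1.18 and 1.08 in mutants and 1.27 and 1.21 in siblings.

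Collagen V sets the width of collagen I fibrils. Its main gene col5a1 had 1110 and 1294 in mutants and 1453 and 1285 in siblings, with overlapping values and a log2 fold change of −0.19 ± 0.22. The ratio of col5a1 to col1a1a was 0.958 and 0.970 in mutants and 0.964 and 0.760 in siblings, and overlapped. The log2 fold changes of col5a2a, col5a3a, col5a3b and col24a1 ran from −0.81 to 0.17. The exception in this class was col5a2b, a low gene with 3 and 3 in mutants and 20 and 14 in siblings, at −2.15 ± 0.62 and an adjusted p of 0.484. Its mean of 10 met the filter only through the siblings, and without sibling 1 or sibling 2 it was not tested. Its paralog col5a2a had 667 and 473 in mutants and 535 and 465 in siblings and overlapped, and was named after its values were seen. Over the 9 fibrillar rows the median was −0.22, with the mutants entirely below the siblings in 4 rows (44.4%, against 18.3% of all genes) and entirely above them in 0. Those 4 rows include col5a2b and col24a1, which both met the filter only through the siblings, so the filter itself favours such rows. Values of col24a1, named after they were seen, were 7 and 8 in mutants and 19 and 10 in siblings. With quantile normalization the class median was −0.07, with col1a1b at −0.07 and col5a1 at −0.03. The median relative to the sibling mean was −0.39 in mutant 1 and −0.08 in mutant 2.

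Cartilage collagens went in both directions, and mutant 2 exceeded mutant 1 in 10 of the 10 tested rows, where it did so in 47.6% of all genes. Mutant 2 was also the higher mutant in 83.3% of the other collagens, 77.8% of fibrillar rows and 73% of all members. In basement membrane rows the share was 37.5%, and in enzymes 62.5%. The median log2 difference of mutant 2 minus mutant 1 was 1.12 over the cartilage rows, 0.27 over all members and 0 over all genes. Collagen IX decorates the surface of collagen II fibrils. Its gene col9a3 had 17 and 51 in mutants and 12 and 10 in siblings, with a log2 fold change of 1.36 ± 0.53 and an adjusted p of 0.681. Its partner col9a2 had 29 and 60 in mutants and 28 and 27 in siblings and was named after its values were seen, while col9a1a, with 11 and 29 in mutants and 31 and 14 in siblings, overlapped. The gene col27a1b encodes a fibrillar collagen of notochord and cartilage and had 20 and 48 in mutants and 16 and 13 in siblings, with 1.06 ± 0.46. In col9a2, mutant 1 lay only 1 unit above the higher sibling.

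Collagen II is the main fibre of cartilage and the notochord sheath. The gene col2a1a had 124 and 225 in mutants and 139 and 65 in siblings, with mutant 1 inside the range of the siblings and a log2 fold change of 0.81 ± 0.39. The more abundant col2a1b had 563 and 824 in mutants and 665 and 814 in siblings, at −0.11 with a 95% confidence interval from −0.67 to 0.45. The chains of collagen XI form the core of cartilage fibrils, and the difference between its paralogs was not tested. Values of col11a1b were 364 and 592 in mutants and 699 and 707 in siblings, with −0.60 ± 0.26 and an adjusted p of 0.713. Values of its paralog col11a1a were 420 and 568 in mutants and 432 and 489 in siblings, and overlapped, with 0.09 ± 0.23.

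The member with the smallest adjusted p, at 0.351, was col10a1a, the gene of a short-chain collagen known from hypertrophic cartilage and bone-forming cells. It was listed at 0 and 8 in the mutants, against 59 and 33 in the siblings. The log2 fold change of −3.91 ± 0.92 depends on the pseudocount, and was −2.02 with a pseudocount of 10. Its copy col10a1b, at 4 and 0 in mutants and 4 and 3 in siblings, was too low for a test. The bone marker gene spp1 was listed at 0 and 0 in mutants and 1 and 10 in siblings, and was too low for a test. Values of the bone markers sp7, runx2a and runx2b overlapped, with 10 and 9 in mutants and 20 and 8 in siblings for sp7. The 4 bone markers of the table summed to 18 and 25 in mutants and 35 and 34 in siblings. Skin and fin fold markers went both ways, with 4 of 13 tested lower, 9 higher and a median of 0.19. Among these the actinodin gene and2 had 22 and 39 in mutants and 139 and 108 in siblings, at −2.03 ± 0.32, while its relative and1 had 8 and 1 in mutants and 2 and 3 in siblings and was too low for a test.

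Markers of cartilage were highest in the same library as the cartilage collagens. Over the 8 of 11 listed markers found in the table the sum was 836 and 1225 in mutants and 846 and 777 in siblings, so mutant 2 was the highest and mutant 1 lay within the siblings. The chondrocyte transcription factor gene sox9a had 123 and 243 in mutants and 98 and 135 in siblings. The matrix gene matn4 had 134 and 211 in mutants and 95 and 99 in siblings, and sox5 had 284 and 403 in mutants and 227 and 237 in siblings. Of 5 tested markers 4 were higher and 1, sox6, lower, where 49.6% of all genes were higher. For sox5 and matn4 (40%) the mutants lay entirely above the siblings, against 15.7% of all genes. Both were higher at an unadjusted p under 0.05, where 2.61% of all genes were. The proteoglycan gene acanb was at 0 in sibling 2 and at most 5 elsewhere, and sox6, a partner of sox9a, had 270 and 327 in mutants and 391 and 288 in siblings. The notochord markers found in the table summed to 53 and 37 in mutants and 18 and 54 in siblings. The part of cartilage-like tissue in the values of this class was not tested. Without mutant 1 the median log2 fold change of the class was 0.74, and without mutant 2 it was −0.26.

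**Figure D4:**
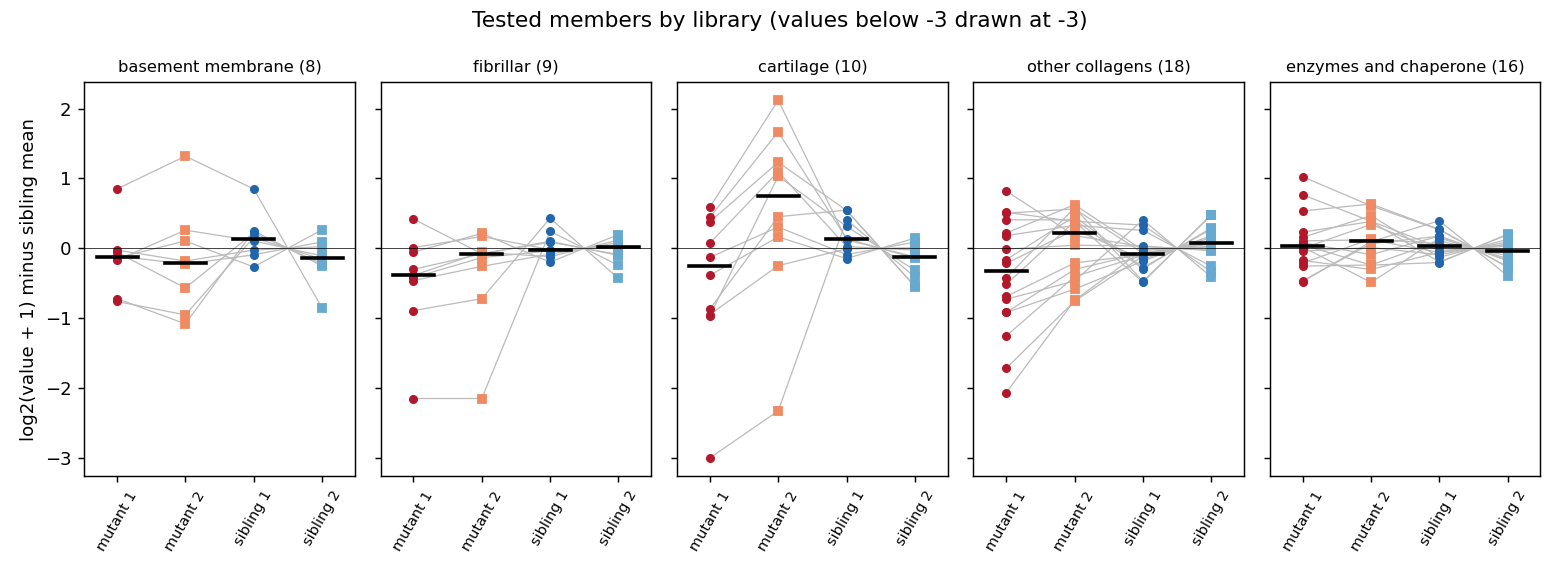
Log2(value + 1) of each tested member minus its sibling mean, in the 4 libraries, with 1 panel per class, grey lines joining the same gene, black bars for the class median and values below −3 drawn at −3. The cartilage median was −0.26 in mutant 1 and 0.74 in mutant 2, while the basement membrane median was −0.12 and −0.20 and the enzyme median 0.04 and 0.11.

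Outside the collagen VI family, 0 tested rows of the other collagens passed an unadjusted p under 0.05. At that p 4.34% of all genes were lower and 2.61% higher, and over so few rows a count of 0 is near those shares. Collagen XII associates with the surface of collagen I fibrils. The gene col12a1a had 596 and 832 in mutants and 903 and 1024 in siblings, with −0.45 ± 0.23, and col12a1b had 608 and 934 in mutants and 562 and 823 in siblings, with 0.15 ± 0.28 and overlapping values. A pair of collagen XIV genes, of the same fibril-associated type and named after their values were seen, had higher values. They were col14a1a, with 150 and 96 in mutants and 86 and 83 in siblings, and col14a1b, with 45 and 47 in mutants and 30 and 33 in siblings. Their log2 fold changes were 0.50 ± 0.27 and 0.53 ± 0.28, with adjusted p of 0.769 and 0.764.

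The remaining collagens included those of the skin. The collagen VII gene col7a1, whose product anchors the epidermal basement membrane, had 115 and 161 in mutants and 120 and 149 in siblings, and col16a1 had 128 and 133 in mutants and 132 and 126 in siblings. Both were named after their values were seen, and both overlapped. Collagen XVII genes, of the hemidesmosome of skin cells, summed to 63 and 61 in mutants and 41 and 57 in siblings. The 11 tested rows of this class that the naming rule left out ran from −0.60 to 0.53. Among the 2 too low for a test, col28a1a had 7 and 9 in mutants and 1 and 0 in siblings, and col19a1 (ENSDARG00000096073) had 6 and 7 in mutants and 5 and 3 in siblings. Over the 18 tested rows of the class the median was 0.02, with 8 lower and 10 higher, where 50.2% of all genes were lower. The 8 included all collagen VI rows.

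**Figure D5:**
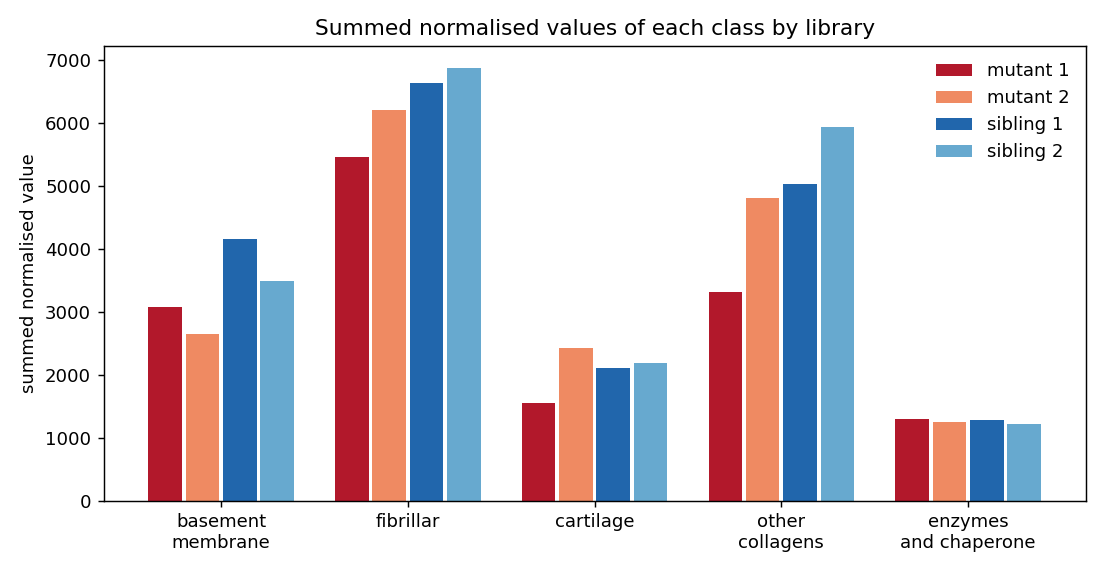
Summed normalised value of each class of members in the 4 libraries, as bars from 0, mutants left of siblings. Basement membrane sums of 3083 and 2642 in mutants lie below the sibling sums of 4156 and 3494. Fibrillar sums of 5464 and 6198 in mutants also lie below the sibling sums of 6627 and 6879. The same holds for the other collagens, with 3309 and 4805 in mutants and 5032 and 5934 in siblings. Cartilage sums of 1558 and 2432 overlap the sibling sums of 2101 and 2185, and enzyme sums lie between 1220 and 1302 in every library.

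The enzyme and chaperone genes centred on a log2 fold change of −0.01, with none past −0.25 on the lower side. Of 17 rows, 16 were tested, 0 were lower and 1 was higher at an unadjusted p under 0.05, where 4.34% and 2.61% of all genes were. The mutants lay entirely below the siblings in 2 rows (12.5%, against 18.3% of all genes) and entirely above them in 6 (37.5%, against 15.7%). The 3 alpha subunit genes of prolyl 4-hydroxylase, the enzyme that stabilises the helix, were p4ha1a, with 84 and 87 in mutants and 81 and 92 in siblings, p4ha1b and p4ha2. Values of p4ha1b were 90 and 69 in mutants and 53 and 52 in siblings, with 0.58 ± 0.26 and an adjusted p of 0.718. The log2 fold change of p4ha1a was −0.01, with a 95% confidence interval from −0.54 to 0.51. Relative to the collagen sum, the p4ha sum was 1.66% and 1.35% in mutants, against 0.971% and 1.04% in siblings. The p4ha sum itself was 223 and 217 in mutants and 174 and 192 in siblings, and did not overlap. Both mutants also had a lower collagen sum, which enters the p4ha share and every other share of that sum.

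Prolyl 3-hydroxylases modify single prolines of the chains. The gene p3h1, whose loss causes brittle bones in humans, had 142 and 116 in mutants and 119 and 158 in siblings, and p3h2, which acts on collagen IV in mice, had 91 and 92 in mutants and 117 and 101 in siblings. Their log2 fold changes were −0.09 ± 0.24 and −0.25 ± 0.23. The lysyl hydroxylase genes showed small differences, with 116 and 103 in mutants and 124 and 97 in siblings for plod2, and 91 and 92 in mutants and 81 and 88 in siblings for plod1a. The 95% confidence interval was −0.54 to 0.53 for plod2 and −0.40 to 0.63 for plod1a. The plod sum was 1.54% and 1.21% of the collagen sum in mutants and 1.14% and 1% in siblings. The plod sum itself was 207 and 195 in mutants and 205 and 185 in siblings, and overlapped.

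The chaperone genes had fold changes of opposite sign, a difference that was not tested. The gene serpinh1a had 228 and 160 in mutants and 249 and 203 in siblings, and overlapped, with −0.23 ± 0.25. Its paralog serpinh1b had 116 and 129 in mutants and 86 and 113 in siblings, with 0.31 ± 0.24 and an adjusted p of 0.833, and overlaps gdpd5b on the other strand. Relative to the collagen sum, serpinh1b was at 0.865% and 0.802% in mutants and 0.480% and 0.611% in siblings. The same share for serpinh1a, a ratio chosen after the values were seen, was 1.7% and 0.995% in mutants and 1.39% and 1.1% in siblings, and overlapped.

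Lysyl oxidases start the crosslinking of collagen and elastin. Here loxl1, whose protein acts in elastic fibres in mice, had 43 and 32 in mutants and 25 and 17 in siblings, both mutants above both siblings, with 0.82 ± 0.35 and an adjusted p of 0.713. The more abundant loxl2b, whose mammalian counterpart crosslinks collagen IV, had 85 and 108 in mutants and 103 and 94 in siblings, with an interval from −0.58 to 0.51. Values of loxl2a were 44 and 56 in mutants and 43 and 45 in siblings, and those of loxl3b 34 and 51 in mutants and 63 and 36 in siblings, and both overlapped. Reads of loxl2b could be shared with sfrp1a, which overlaps it on the same strand. The founding member loxa, with 6 and 0 in mutants and 6 and 3 in siblings, was not tested. The 4 tested enzyme rows that the naming rule left out ran from −0.24 to 0.58. The rows matched by name only had 75 and 67 in mutants and 60 and 69 in siblings (col4a3bpa) and 56 and 72 in mutants and 45 and 61 in siblings (col4a3bpb).

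Other genes of the collagen pathway were read from 6 lists, in none of which a gene passed the adjusted threshold. Among basement membrane partners, 13 of 14 tested genes were lower and 1 higher, with a median of −0.36, where 50.2% of all genes were lower. For 9 (64.3%) the mutants lay entirely below the siblings, against 18.3% of all genes. The most abundant were the laminin genes lama5, with 1027 and 904 in mutants and 1671 and 1165 in siblings, and lamc1, with 1147 and 915 in mutants and 1406 and 1226 in siblings. Nidogen links laminin to collagen IV. Its genes nid1b and nid1a were the 2 of this list (14.3%) at an unadjusted p under 0.05. Of all genes, 4.34% were lower at that p. Values of nid1b were 753 and 552 in mutants and 1082 and 879 in siblings. Those of nid1a were 58 and 128 in mutants and 184 and 166 in siblings. The log2 fold changes were −0.60 ± 0.24 for nid1b and −1.01 ± 0.35 for nid1a.

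Receptors and proteases of collagen had lower values in several genes. Of 8 tested receptor genes 6 were lower and 2 higher, with a median of −0.36, where 50.2% of all genes were lower. For 5 (62.5%) the mutants lay entirely below the siblings, against 18.3% of all genes. For 1 (12.5%) they lay entirely above, against 15.7%. An unadjusted p under 0.05 was passed by itga1 and ddr2a (25%), both lower, where 4.34% of all genes were lower. The 2 higher, named after their values were seen, were itga2.2 at 0.75 ± 0.38 and ddr2l at 0.17 ± 0.28. Values of itga2.2 were 24 and 40 in mutants and 19 and 17 in siblings. Among those too low for a test, itga2.3 had 10 and 13 in mutants and 1 and 0 in siblings. There itga11b had 10 and 9 in mutants and 4 and 5 in siblings, and itga11a overlapped. The collagen-binding integrin gene itga1 had 81 and 72 in mutants and 113 and 117 in siblings, and the discoidin receptor gene ddr2a 20 and 25 in mutants and 36 and 45 in siblings, at −0.58 ± 0.23 and −0.82 ± 0.32. The abundant beta 1 integrin genes itgb1a and itgb1b stood at −0.31 ± 0.21 and −0.41 ± 0.21. Of 5 tested breakdown genes 5 were lower, with a median of −0.27, where 50.2% of all genes were lower. For 2 of them (40%) the mutants lay entirely below the siblings, against 18.3% of all genes. These were the membrane collagenase genes mmp14b and mmp14a. Values of mmp14b were 161 and 203 in mutants and 291 and 330 in siblings. Those of mmp14a were 58 and 111 in mutants and 138 and 139 in siblings. The gelatinase gene mmp2 stood at −0.27 ± 0.23.

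Folding and secretion genes had a median log2 fold change of −0.11 over 14 tested genes, with 11 lower and 3 higher, where 50.2% of all genes were lower. At an unadjusted p under 0.05, 0 were called in either direction, where 4.34% of all genes were lower and 2.61% higher. The beta subunit gene of prolyl 4-hydroxylase, p4hb, had 473 and 608 in mutants and 532 and 631 in siblings, and mia3, a receptor for collagen export, 431 and 485 in mutants and 549 and 444 in siblings. Procollagen proteinases and enhancers went both ways, with 2 of 5 tested lower and 3 higher, where 50.2% of all genes were lower. Of the 3 higher, adamts2, named after its values were seen, met the filter only through the mutants, with a sibling mean of 9.5. Here bmp1a, a proteinase that trims fibrillar procollagen, had 71 and 97 in mutants and 128 and 115 in siblings. Its enhancer gene pcolcea had 192 and 180 in mutants and 157 and 175 in siblings. The related proteinase gene tll1 had 60 and 31 in mutants and 140 and 136 in siblings, at −1.65 ± 0.32 with an adjusted p of 0.21. It was the only gene of this list (20% of those tested) at an unadjusted p under 0.05, where 4.34% of all genes were lower. Among fibril-associated proteins the median was 0 over 11 tested genes, with the fibronectin gene fn1a at −0.75 ± 0.21 and its paralog fn1b at 0 ± 0.22. In that list fmoda, the gene of a small proteoglycan that binds collagen fibrils, stood at −0.52 ± 0.23 and postnb at 0.24 ± 0.27.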

How the data were processed

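The authors deposited 1 table of normalised counts per gene for 4 libraries, with whole numbers and no stated method of normalization. The deposited values were handled as a score of no fixed unit, since the spacing of low values differed between libraries (fitted factors of 0.904 and 0.75 in mutants, 1.341 and 1.146 in siblings) as it would after division by a factor and rounding. Per the labels' protocols, 2 ng of total RNA entered a stranded total RNA kit for small inputs. Per the submitters' processing notes, STAR 2.4.0a, featureCounts 1.4.5-p1, Subread and FastQC were used with GRCz11, without their roles. Normalised totals were 2154702 to 2648465, and mitochondrial genes took 46.2% and 39.8% of them in mutants and 34.8% and 32.1% in siblings.

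Values were analysed as log2(value + 1). The 12118 of 16662 genes whose mean reached 10 were fitted by limma 3.58.1 (R 4.3.3) using its trended variance, no block and Benjamini-Hochberg adjustment over all of them, two-sided, with a threshold of 0.05. Adjusted p are from that fit, which was tested on simulated data, except where the replicate block is named. Sums, medians and ratios carry no test. Members and lists were chosen with earlier results of these data known. Named were each collagen IV gene, the 4 highest of each other class or enzyme family, each member at an unadjusted p under 0.05 and each row matched by name only, 39 in all. Of the partner genes, those at an unadjusted p under 0.05 and the 2 highest of each list were named. Protein and promoter sequences were not used here.

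Mutant and sibling libraries carry the same replicate numbers without a stated pairing. Alternatives were another pseudocount, other filters, 3 other scalings, a robust fit, the replicate block and leaving out each library.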

Additional observations from a re-analysis of the deposited data

How the results depend on the processing

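The count of 0 members past the threshold was the same under every alternative except the replicate block, where limma called 3 of 63 members, col4a1 (adjusted p = 0.0276), col4a2 (0.0401) and the main col6a3 row (0.0225), against 95 of all genes. Without the block, 10 members were lower and 3 higher at an unadjusted p under 0.05, beside 4.34% and 2.61% of all genes. With it, 13 were lower and 5 higher, beside 6.72% and 4.66% of all genes. The numbers are not stated to pair the samples (correlation of same-numbered deviations 0.198), so these calls are not used. When a mean of 50 was required, 0 members were higher at an unadjusted p under 0.05, and 7 were lower. Of all genes, 2.03% were higher and 6.04% lower with that filter. With totals scaled without mitochondrial genes, 5 were higher and 8 lower, beside 4.17% and 2.99% of all genes. That scaling put the median log2 fold change of enzymes at 0.08 and that of all genes at 0.09. Without 1 library each, fitted to 3 libraries with the lone library assumed to vary like the other group, the lower members numbered 2 to 7 and the higher ones 1 to 3. In each of these fits a smaller share of all genes was lower at an unadjusted p under 0.05 than with all libraries. The share of all genes that was higher moved both ways. Each fit leaves 1 library in a group, so these counts are not used as a property of the members. Without 1 library each, the median over all members ran from −0.13 to 0.11, and for fibrillar collagens from −0.39 to −0.08. It ran from −0.26 to 0.74 for cartilage collagens, from −0.32 to 0.22 for other collagens and from 0.04 to 0.11 for enzymes.

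Of 38 named and tested members, 28 kept the sign of their fold change under each alternative that tested them. All 12 alternatives tested 29 of the 38, and fewer tested the other 9, which fell under a filter. The sign turned under quantile normalization in col4a5 (0.07), col2a1b (0.06), plod2 (0.06), loxl2b (0.02) and p4ha1a (0.02), and with totals scaled without mitochondrial genes in col4a5 (0.07), plod2 (0.08), loxl2b (0.05) and p4ha1a (0.08). Leaving out 1 library gave ranges across 0 of −0.28 to 0.25 for col4a5, −0.39 to 0.16 for col2a1b, −0.13 to 0.30 for col11a1a, −0.49 to 0.02 for serpinh1a, −0.18 to 0.17 for plod2, −0.21 to 0.13 for loxl2b, −0.59 to 0.21 for loxl3b, −0.30 to 0.11 for p3h1, −0.10 to 0.08 for p4ha1a and −0.16 to 0.46 for col12a1b. The causes were not tested. At this depth 5 members were too low for a test, and differences of low members such as col5a2b and col10a1a rest on few reads.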
